A study of Homo sapiens with 6 samples.

Results

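Kinetochore and centromere genes encode the proteins that mark the centromere of each chromosome, build the kinetochore on it and hold it to the spindle. The set described here is 37 such genes, taken by symbol from a count table of 58735 genes, and all 37 were detected in every library and entered the test. They were compared between 3 Control libraries and 3 SRRM4 KO libraries of UE7T-9, a human mesenchymal stem cell line from bone marrow. SRRM4 is a splicing factor best known from neurons. Control cells are the parental UE7T-9 line, labelled wild type, and the sources do not state whether they carried an empty vector. The SRRM4 KO libraries come from UE7T-9 cells that received a lentiCRISPR v2 vector with a guide RNA against SRRM4, were selected with puromycin and were then cloned by dilution, so the KO group is 1 clone. The study describes the loss of SRRM4 protein as incomplete, and the sources name no further treatment of either group.

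A kinetochore is assembled anew on every centromere in each cell division. The histone H3 variant CENP-A marks the place, an inner layer of proteins called the constitutive centromere-associated network sits on it throughout the cell cycle, and an outer layer with the microtubule-binding NDC80 complex is added as cells enter mitosis. The spindle checkpoint kinases and adaptors gather on kinetochores that hold no microtubule and delay anaphase. Transcripts of many of these genes are known to accumulate in the G2 and M phases of dividing cells.

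RNA of the kinetochore and centromere genes was higher in the SRRM4 KO libraries for nearly the whole set. Tested with edgeR's quasi-likelihood F test and Benjamini-Hochberg adjustment over 15341 genes, 33 of the 37 genes were higher in SRRM4 KO at an adjusted p under 0.05, none was lower, and 4 did not pass, namely CENPP, CENPC, CENPT and NSL1. None was lower at an unadjusted p under 0.05 or by DESeq2 either. Over all tested genes 20.7% were higher and 20.9% were lower by the same rule. The median log2 fold change of the 37 genes, SRRM4 KO over Control, was 1.07, which is 2.10-fold, with quartiles of 0.77 and 1.30 and a range from -0.12 to 1.76. All tested genes had a median of -0.01 with quartiles of -0.37 and 0.33.

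With a log2 fold change beyond 1 required as well, 24 of the 37 genes were higher, against 5.45% of all tested genes. Of these 24, the 95% interval reached below 1 for 14 and lay wholly above it for 10 (SPC24, TTK, NUF2, CENPW, BUB1B, BUB1, KNL1, CENPE, ZWINT and CENPI). CENPQ, HJURP, CENPL and DSN1 lay just past the line, with log2 fold changes from 1.01 to 1.02. In 35 of the 37 genes every SRRM4 KO library lay above every Control library in CPM (counts scaled to a common library size after TMM normalization), which was the case for 25.9% of all tested genes. The groups overlapped only for CENPT and NSL1. These are bulk samples, so a larger share of dividing cells and more RNA of these genes in each cell cannot be told apart. No label says that libraries of a group came from separate cultures, and the p-values then measure only the spread between these libraries.

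**Figure D1:**
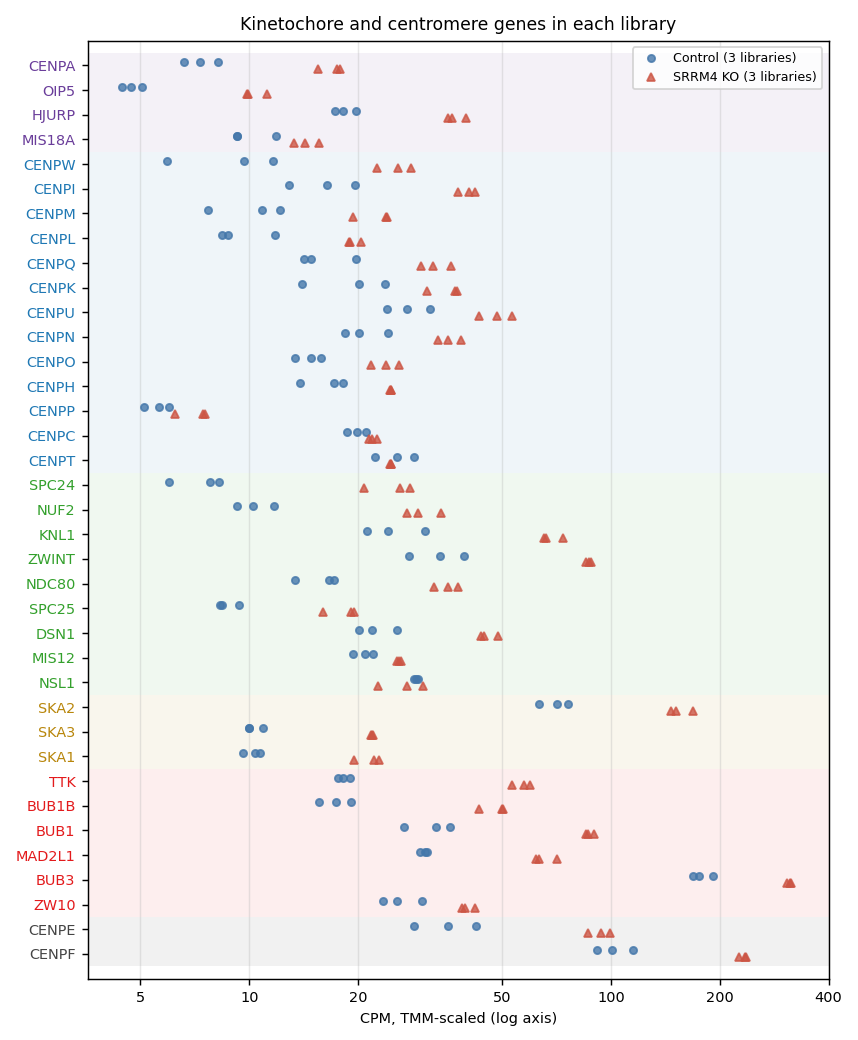
CPM of each of the 37 genes on a log axis in the 3 Control libraries (circles) and the 3 SRRM4 KO libraries (triangles), with gene names coloured and rows shaded by role. The 2 groups are apart for 35 genes and overlap for CENPT and NSL1.

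Summed over the 37 genes, the level was 1022, 913.4 and 932.8 CPM in Control replicates 1 to 3 and 1933, 1898 and 1979 CPM in SRRM4 KO replicates 1 to 3. The means were 956 ± 58.2 and 1936 ± 40.7 CPM (SD, n = 3 each), a ratio of 2.02, and the groups were far apart relative to the spread within them. BUB3 and CENPF were the most abundant of the set in both groups, and without them the sums were 675 ± 39.3 and 1392 ± 42.3 CPM, a ratio of 2.06. The share of all counts that fell on the 37 genes was between 0.0897% and 0.0999% in Control and between 0.194% and 0.203% in SRRM4 KO. The 3 SRRM4 KO libraries resembled each other in this: their median log2 ratio of the 37 genes to the Control mean was 1.09, 1.06 and 1.09.

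The libraries held between 21496117 and 23868323 counts. SRRM4 itself had 0 counts in all 6 libraries, which allows up to 3 counts per library for counting error, so its RNA gives no check of the KO label. Control replicate 1 stood apart from the other libraries, with 22403 genes detected against 20127 to 20674, and without it the same count of 33 of the 37 genes was higher, with a median of 1.12. The 8 mesenchymal markers were all detected in both groups, but 5 were lower in SRRM4 KO, 2 were higher and 1 did not pass. THY1 (CD90), PDGFRB, COL1A2, COL1A1 and ENG (CD105) had log2 fold changes of -2.43, -2.14, -1.70, -1.23 and -0.34, and CD44 and NT5E (CD73) of 1.39 and 0.52. Their summed level, mostly collagen I, was 40790 to 44790 CPM in Control and 17250 to 19220 CPM in SRRM4 KO, a ratio of the means of 0.428. This shift moved with the rise of the kinetochore genes in the same libraries, and its part in that result was not tested. Of the defining markers of other cell types, CD3E had 0 counts in every library, and PTPRC, PECAM1, CDH5 and EPCAM had at most 3. CD14 (324 to 392 counts) and CD34 (66 to 93) were present at like levels in both groups and did not pass the test. CD79A had at most 5 counts, and HLA-DRA had 7 to 11 in Control and 0 to 4 in SRRM4 KO. The summed level of the 6 haematopoietic markers, nearly all of it CD14 and CD34, was between 20.1 and 21.5 CPM in Control and between 17.9 and 21.1 CPM in SRRM4 KO, and the 4 epithelial markers, mostly KRT18, summed to 97.0 to 118 CPM and 101 to 108 CPM, with KRT8 lower in SRRM4 KO (log2 fold change -0.59, adjusted p = 0.00674). The 4 endothelial markers summed to 9.78 to 11.6 CPM in Control and 3.81 to 4.82 CPM in SRRM4 KO, carried by KDR.

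**Figure D2:**
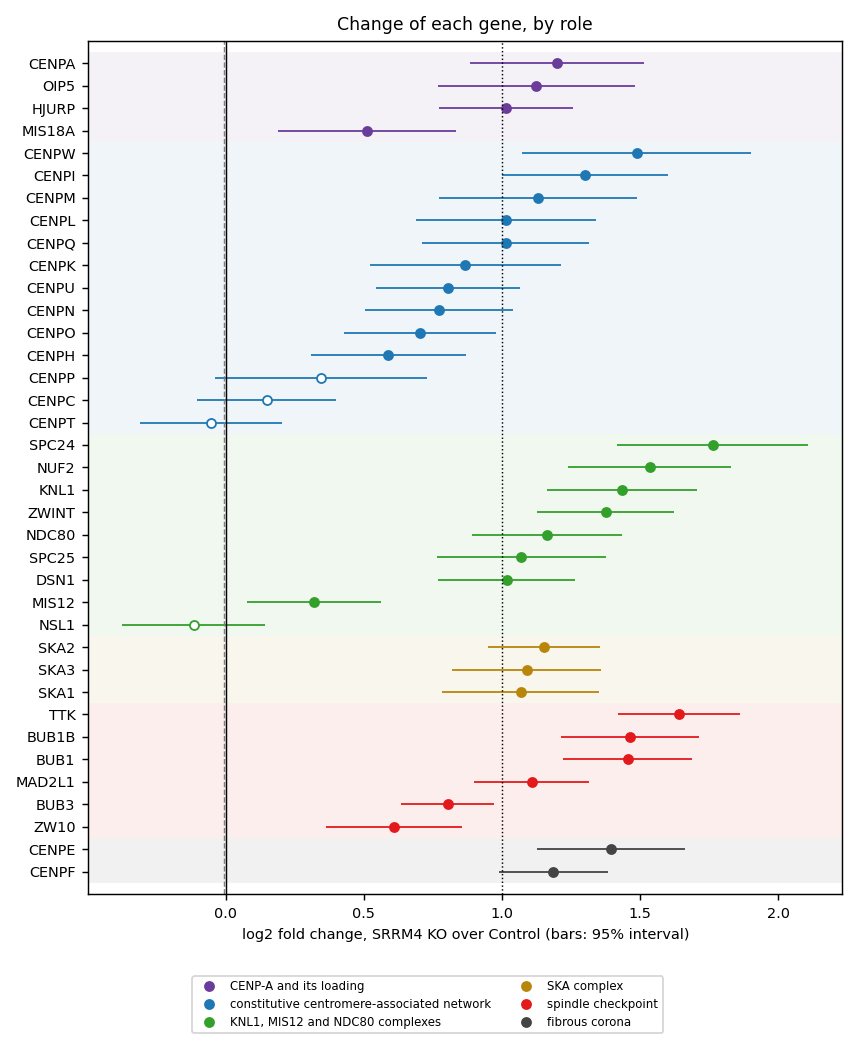
Log2 fold change, SRRM4 KO over Control, of each gene with its 95% interval, ordered by size within 6 roles; filled points passed an adjusted p of 0.05 and open points did not. The solid line is at 0, the dashed line at the median of all tested genes (-0.01) and the dotted line at 1; SPC24 is highest at 1.76 and NSL1 lowest at -0.12.

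The promoters of the genes were read for 3 short sequence elements that are known from genes transcribed in S, G2 and M phase, because the genes moved together. The cell cycle genes homology region (CHR), a site of MuvB complexes such as DREAM, has the core TTTGAA. The CCAAT box, a site of NF-Y, was searched as CCAAT, and the E2F site by the cores GCGGGAA and GCGCGAA. Each was searched as an exact match on both strands from 250 bases before to 50 bases after the RefSeq start site. Of the 37 genes, 30 had an entry in the RefSeq promoter table (GRCh38.p14), with 34 promoters in all, and BUB3, CENPH, CENPL, CENPM, KNL1, MIS18A and TTK had none.

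The CHR core was found in 47.1% of the 34 promoters, against 15.2% of all 35116 promoters in the table and 10.7% of the 15262 promoters of tested protein-coding genes. The CCAAT box was found in 61.8%, against 34.6% and 34.4%. An E2F core was found in 38.2%, against 8.54% and 12.3%. Counted by gene, 15 genes had a CHR core, 19 had a CCAAT box and 11 had an E2F core. CENPE, CENPI, DSN1, CENPT and NSL1 held none of the elements in this window. A match is a string of letters and was not tested as a binding site, and a window without one says only that these letters are not in it.

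**Figure D3:**
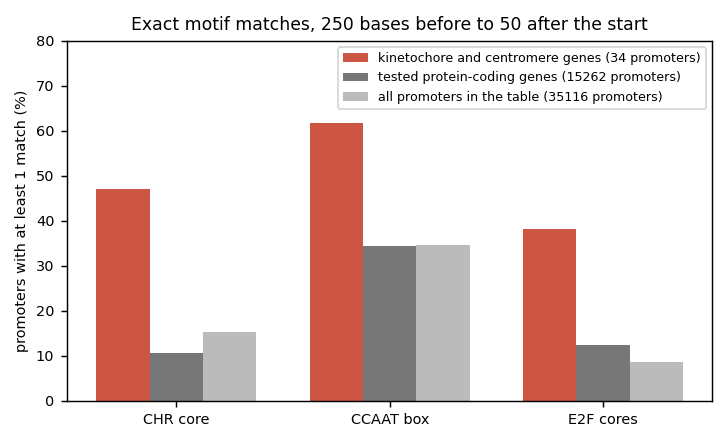
Percent of promoters with at least 1 exact match to each element, on a linear axis from 0, for the kinetochore and centromere genes (34 promoters), the tested protein-coding genes (15262) and the whole table (35116). The bars of the kinetochore and centromere genes stand at 47.1%, 61.8% and 38.2% and are the tallest of each group of bars.

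The 120 bases before the start site are printed for 8 genes from GRCh38.p14, 5′ to 3′ on the gene's own strand, in lower case with the matches to the elements, on either strand, in capitals. These 8 are picked examples and do not show how often an element goes with a rise. CENPE, CENPI and DSN1, which rose and held none of the elements, are not printed. BUB1B (chr15:40160949-40161068, plus strand) and CENPA (chr2:26785936-26786055, plus strand) show a CHR core close to the start, beginning at positions -23 and -18 from it. ZWINT (chr10:56361274-56361393, minus strand) holds the 3 elements together, with CCAAT boxes at -102 and -52, an E2F core at -36 and a CHR core in the reverse orientation at -17. SKA2 (chr17:59155187-59155306, minus strand) shows a run of 3 CCAAT boxes at -116, -85 and -53, and SPC24 (chr19:11155783-11155902, minus strand) a pair at -109 and -74. CENPC (chr4:67545504-67545623, minus strand), NSL1 (chr1:212791778-212791897, minus strand) and CENPT (chr16:67847694-67847813, minus strand) are 3 of the 4 genes whose RNA did not pass the test. CENPC has a CHR core at -90 and a CCAAT box at -43, and NSL1 and CENPT have no match.
BUB1B: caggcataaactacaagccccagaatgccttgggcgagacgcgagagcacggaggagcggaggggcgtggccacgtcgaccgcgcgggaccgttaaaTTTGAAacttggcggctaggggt
CENPA: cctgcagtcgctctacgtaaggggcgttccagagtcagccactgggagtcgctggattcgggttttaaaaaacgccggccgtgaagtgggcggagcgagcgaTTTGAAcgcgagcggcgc
ZWINT: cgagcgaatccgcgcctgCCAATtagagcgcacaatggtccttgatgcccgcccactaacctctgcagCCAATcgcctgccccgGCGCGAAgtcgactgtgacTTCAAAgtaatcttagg
SKA2: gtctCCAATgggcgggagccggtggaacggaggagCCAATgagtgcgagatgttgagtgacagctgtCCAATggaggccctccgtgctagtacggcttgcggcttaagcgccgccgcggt
SPC24: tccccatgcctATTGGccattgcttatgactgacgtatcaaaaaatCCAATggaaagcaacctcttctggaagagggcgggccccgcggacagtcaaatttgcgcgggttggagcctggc
CENPC: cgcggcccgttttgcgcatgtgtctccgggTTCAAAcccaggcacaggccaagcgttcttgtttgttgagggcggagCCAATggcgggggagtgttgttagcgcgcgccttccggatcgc
NSL1: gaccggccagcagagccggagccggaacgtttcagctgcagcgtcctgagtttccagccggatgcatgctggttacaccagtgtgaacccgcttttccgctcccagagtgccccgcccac
CENPT: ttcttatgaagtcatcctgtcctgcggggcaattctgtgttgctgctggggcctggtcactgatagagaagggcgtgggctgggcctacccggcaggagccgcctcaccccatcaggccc

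Split by the test, the 28 promoters of the 26 genes that were higher held a CHR core in 53.6%, a CCAAT box in 67.9% and an E2F core in 46.4%. The 6 promoters of the 4 genes that did not pass held them in 16.7%, 33.3% and 0.0%. Promoters are counted here, so a gene with several of them weighs more. By gene, of these 4, CENPC had a CHR core and a CCAAT box, CENPP had a CCAAT box, and the others had no match. With 4 genes in the second group these shares are a description and no test was made. Genes with no match were also among the strong risers, as with CENPI and CENPE.

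CENP-A and the factors that load it rose as a group, 4 of 4. CENPA, the centromeric histone itself, had 143, 157 and 183 counts in Control and 396, 377 and 384 in SRRM4 KO, a log2 fold change of 1.20 (SE 0.148, adjusted p = 1.08e-05). HJURP, the chaperone that deposits CENP-A, had 393, 371 and 441 counts against 883, 861 and 799, a log2 fold change of 1.01. The Control and SRRM4 KO libraries were apart for both genes by more than the whole range of either group.

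OIP5 and MIS18A encode the Mis18 proteins that license a centromere for new CENP-A. OIP5 had 102, 109 and 99 counts in Control and 221, 272 and 217 in SRRM4 KO, a log2 fold change of 1.12 (SE 0.167, adjusted p = 6.54e-05). MIS18A had 201, 255 and 206 counts in Control and 348, 348 and 293 in SRRM4 KO and rose least of the group, with a log2 fold change of 0.51 (SE 0.151, adjusted p = 0.0132). The MIS18A call did not hold without Control replicate 3 (adjusted p = 0.0547) or without SRRM4 KO replicate 1 (0.0663). OIP5 shares 38.0% of its exon bases with OIP5-AS1 on the other strand, which had 4485 to 6241 counts and a log2 fold change of 0.18. The libraries do not keep strand, so reads in the shared bases cannot be assigned to one of them.

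The constitutive centromere-associated network, the inner kinetochore, was mixed. Of its 13 genes 10 rose and 3 did not pass, and its median log2 fold change of 0.80 was the lowest of the 6 roles. Its sum was between 197 and 224 CPM in the Control libraries and between 349.9 and 368 CPM in the SRRM4 KO libraries, a ratio of the means of 1.71.

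CENPW and CENPT encode histone-fold proteins that pair with each other on centromeric DNA, and their RNA moved very differently. CENPW had 128, 250 and 216 counts in Control and 574, 680 and 495 in SRRM4 KO, a log2 fold change of 1.49 (SE 0.194, adjusted p = 1.88e-05). CENPT had 483, 616 and 573 counts in Control and 549, 597 and 542 in SRRM4 KO, a log2 fold change of -0.05 with a 95% interval from -0.31 to 0.20 (adjusted p = 0.761). The SRRM4 KO libraries of CENPT lay inside the range of the Control libraries in CPM, while those of CENPW lay wholly above theirs. Relative to the median of the tested genes of its chromosome, chromosome 16, CENPT was at 0.23 on the log2 scale.

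The other partners of that histone-fold complex, CENPS and CENPX, are outside the 37 genes and were read for comparison. CENPX had 213, 421 and 373 counts in Control and 1314, 1533 and 1063 in SRRM4 KO, a log2 fold change of 1.89 (SE 0.188, adjusted p = 1.14e-06), and CENPS was low, at 30 to 38 counts against 51 to 61, and did not pass (log2 fold change 0.66, adjusted p = 0.11). Per kilobase of exon, the level of CENPT was 4.61 CPM per kb in Control and 4.44 in SRRM4 KO, while that of CENPW went from 11.4 to 31.9. Control replicate 1 held fewer counts of CENPW and CENPX than the other Control libraries. CENPT shares 19.6% of its exon bases with other genes, among them NUTF2 and THAP11.

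CENPI, CENPM, CENPK and CENPH encode one subcomplex of the network, and all 4 rose. CENPI had 425, 277 and 365 counts in Control and 939, 918 and 891 in SRRM4 KO, a log2 fold change of 1.30 (SE 0.141). CENPM had 167, 234 and 272 counts against 535, 583 and 425, a log2 fold change of 1.13 (SE 0.168). CENPK and CENPH rose less, by log2 fold changes of 0.87 and 0.59, and for each the lowest SRRM4 KO library was still above the highest Control library. CENPL and CENPN, which together contact the CENP-A nucleosome, rose by 1.01 and 0.77 on the log2 scale. CENPL had 255, 188 and 187 counts in Control and 455, 459 and 419 in SRRM4 KO.

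CENPO, CENPP, CENPQ and CENPU form another subcomplex, which takes part in recruiting the kinase PLK1. CENPQ had 427, 319 and 316 counts in Control and 720, 725 and 795 in SRRM4 KO, a log2 fold change of 1.01. CENPU, the most abundant gene of the inner kinetochore in CPM, had 686, 519 and 611 counts against 1078, 1055 and 1176, a log2 fold change of 0.80, and CENPO rose by 0.70. CENPP, the lowest of the 37 genes per length, had 130, 121 and 114 counts against 139, 181 and 166, a log2 fold change of 0.34 with a 95% interval from -0.04 to 0.73 (adjusted p = 0.142). Its groups did not overlap in CPM, and the interval leaves room for no change and for a rise like that of CENPO.

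CENPP shares 42.7% of its exon bases with other genes, mainly IPPK on the other strand (93 to 163 counts, log2 fold change 0.02, adjusted p = 0.944) and to a smaller part NOL8, which fell (log2 fold change -0.48, adjusted p = 0.0171). The share was 31.4% for CENPO (mainly ADCY3 on the other strand), 22.8% for CENPN and 11.7% for CENPU. ADCY3 had 723 to 876 counts and a log2 fold change of 0.02, CMC2, which overlaps CENPN, 0.14, and PRIMPOL, which overlaps CENPU, 0.05. ADCY3, CMC2 and PRIMPOL did not pass the test. How far shared bases took part in the counts of these kinetochore genes was not tested.

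CENPC encodes the protein that ties CENP-A nucleosomes to the outer kinetochore. It had 455, 401 and 444 counts in Control and 504, 532 and 472 in SRRM4 KO, a log2 fold change of 0.15 with a 95% interval from -0.10 to 0.40 (adjusted p = 0.344). Its groups did not overlap in CPM, though the gap between them was small. CENPC and CENPT, the proteins known to link the inner network to the outer layer, are thus both among the genes that did not pass the test.

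The outer layer, made of KNL1 with ZWINT, the MIS12 complex and the NDC80 complex, rose in 8 of 9 genes with a median log2 fold change of 1.16. Its sum went from 173 ± 5.74 to 362 ± 11.0 CPM (SD, n = 3 each), a ratio of 2.09. The 4 genes of the NDC80 complex, the main microtubule attachment, all rose beyond a log2 fold change of 1.

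SPC24, one of the subunits that anchor the complex in the kinetochore, had the largest log2 fold change of the 37 genes with all libraries in the fit. It had 130, 178 and 174 counts in Control and 583, 678 and 457 in SRRM4 KO, a log2 fold change of 1.76 (SE 0.162, adjusted p = 4.96e-07), or 3.39-fold. TTK was level with it or higher without Control replicate 1 (1.64 against 1.63) and without SRRM4 KO replicate 2 (1.68 against 1.67), and with the chromosome median subtracted BUB1 was at 1.70 and SPC24 at 1.62. The partner of SPC24, SPC25, had 203, 179 and 187 counts against 426, 476 and 352, a log2 fold change of 1.07 (SE 0.143). NUF2 and NDC80 form the end that binds microtubules. NUF2 had 253, 221 and 207 counts in Control and 608, 712 and 745 in SRRM4 KO, a log2 fold change of 1.53 (SE 0.138), and NDC80 had 372, 289 and 370 against 723, 866 and 829, a log2 fold change of 1.16 (SE 0.127). Every SRRM4 KO library was above every Control library for the 4 genes.

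The proteins of the NDC80 complex assemble in equal numbers, and their RNA levels per length were closer to each other in SRRM4 KO. In Control the mean levels were 4.37 CPM per kb for NDC80, 3.09 for NUF2, 2.59 for SPC24 and 4.72 for SPC25. In SRRM4 KO they were 9.79, 8.96, 8.78 and 9.90 CPM per kb. The ratio of the highest to the lowest subunit was 2.41, 1.55 and 1.68 in the Control libraries and 1.28, 1.22 and 1.43 in the SRRM4 KO libraries, so the groups did not overlap, but 3 libraries against 3 cannot go below p = 0.1 in an exact permutation test and the comparison was chosen after the values were seen. The ratio of CENPL and CENPN was also lower in SRRM4 KO without overlap, at 2.84 to 3.31 in Control and 2.39 to 2.78 in SRRM4 KO. For the MIS12 complex the ratio was 1.83 to 3.49 in Control and 3.59 to 5.50 in SRRM4 KO, for CENP-T, W, S and X 7.78 to 15.8 and 19.8 to 34.1, and for CENP-O, P, Q, U and R (the last encoded by ITGB3BP, outside the 37 genes) 14.9 to 18.6 and 22.6 to 29.3, so each was wider in SRRM4 KO. For CENP-H, I, K and M it overlapped, at 1.76 to 2.14 and 1.26 to 1.88, as it did for the SKA complex, at 6.15 to 6.89 and 6.67 to 7.49, and for KNL1 with ZWINT, at 3.89 to 7.99 and 5.11 to 5.75.

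**Figure D4:**
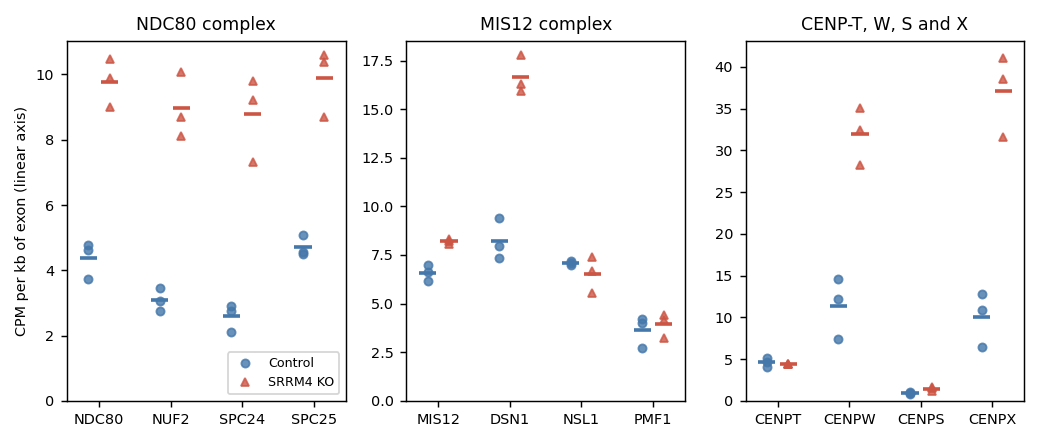
Level in CPM per kb of exon, on linear axes that differ between panels, of the subunits of 3 complexes in each Control library (circles) and SRRM4 KO library (triangles), with bars at the means. The NDC80 subunits all rose, to means between 8.78 and 9.90, while MIS12, NSL1 and PMF1 had log2 fold changes from -0.12 to 0.32 beside DSN1 at 1.02, and CENPT had -0.05 beside CENPW at 1.49 and CENPX at 1.89.

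The MIS12 complex, the bridge between the inner network and the NDC80 complex, was uneven. DSN1 had 557, 471 and 449 counts in Control and 972, 1086 and 1071 in SRRM4 KO, a log2 fold change of 1.02 (SE 0.116, adjusted p = 4.73e-06). MIS12 had 477, 418 and 466 counts against 569, 639 and 571, a log2 fold change of 0.32 (SE 0.114, adjusted p = 0.0349). NSL1 had 636, 625 and 637 counts against 609, 554 and 664, a log2 fold change of -0.12 with a 95% interval from -0.37 to 0.14 (adjusted p = 0.483), and its groups overlapped. PMF1, the remaining subunit and outside the 37 genes, had a log2 fold change of 0.12 (adjusted p = 0.667).

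Within this complex, then, the subunits were 1.13 apart on the log2 scale between NSL1 and DSN1, against 0.69 between the lowest and highest subunit of the NDC80 complex and 0.08 within the SKA complex. The MIS12 call was the weakest of the 33 and did not hold with upper-quartile normalization, without a filter on low counts or when any single library other than Control replicate 1 was left out (adjusted p from 0.0517 to 0.126 in these fits). Relative to the median of the tested genes of its chromosome, chromosome 17, MIS12 was at 0.11.

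KNL1, the scaffold on which checkpoint proteins gather, and its partner ZWINT both rose. KNL1 had 664, 520 and 472 counts in Control and 1456, 1611 and 1620 in SRRM4 KO, a log2 fold change of 1.43 (SE 0.127, adjusted p = 3.22e-07). ZWINT had 600, 726 and 875 counts against 1902, 2148 and 1920, a log2 fold change of 1.37 (SE 0.116, adjusted p = 1.91e-07). Their order turned with the Control libraries: without Control replicate 1 the log2 fold changes were 1.59 for KNL1 and 1.25 for ZWINT, and without Control replicate 3 KNL1 was at 1.32, below ZWINT. Per length ZWINT was much the more abundant of the pair, at 14.1 CPM per kb in Control and 36.6 in SRRM4 KO, against 2.47 and 6.67 for KNL1.

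The SKA complex, which helps kinetochores keep hold of shortening microtubule ends, rose in 3 of 3 genes. SKA1 had 225, 231 and 215 counts in Control and 492, 473 and 504 in SRRM4 KO, a log2 fold change of 1.07. SKA2 had 1648, 1365 and 1580 counts against 3373, 3570 and 3719, a log2 fold change of 1.15, and SKA3 had 236, 215 and 223 against 490, 530 and 481, a log2 fold change of 1.09. The groups were well apart for each, with adjusted p from 1.59e-07 to 1.23e-05. SKA2 had the highest level per length of all 37 genes, 22.2 CPM per kb in Control and 49.4 in SRRM4 KO, against 3.37 to 3.47 and 7.18 to 7.28 for its partners. Its printed promoter is the one with 3 CCAAT boxes, and a relation between these boxes and the level was not tested.

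All 6 spindle checkpoint genes rose, with a median log2 fold change of 1.28, and their sum went from 303 ± 19.7 to 609 ± 11.4 CPM (SD, n = 3 each). TTK, the kinase also called MPS1 that starts the signal, had 393, 378 and 424 counts in Control and 1332, 1300 and 1262 in SRRM4 KO, a log2 fold change of 1.64 (SE 0.104, adjusted p = 9.08e-09). It had the smallest adjusted p of the 37 genes, and its libraries were tight within each group.

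BUB1 encodes a kinase recruited to KNL1, and BUB1B encodes BubR1, a part of the complex that holds back anaphase. BUB1 had 779, 579 and 734 counts in Control and 1902, 2111 and 1983 in SRRM4 KO, a log2 fold change of 1.45 (SE 0.109). BUB1B had 414, 374 and 348 counts against 963, 1217 and 1104, a log2 fold change of 1.46 (SE 0.117). BUB3 encodes the adaptor that brings both to the kinetochore. It was the most abundant of the 37 genes in CPM. Its counts were 4157, 3787 and 3764 in Control against 6983, 7471 and 6931 in SRRM4 KO, and it rose by 0.80 on the log2 scale (SE 0.0783, adjusted p = 9.12e-07), less than BUB1 and BUB1B.

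MAD2L1 encodes MAD2, the direct inhibitor of the anaphase activator CDC20. It had 664, 668 and 660 counts in Control and 1385, 1539 and 1565 in SRRM4 KO, a log2 fold change of 1.11 (SE 0.0978, adjusted p = 3.24e-07). ZW10, part of the complex that brings dynein and the MAD proteins to the kinetochore and one that also works in membrane traffic, had 650, 552 and 522 counts against 882, 1023 and 854, the smallest rise of the checkpoint genes at 0.61 (adjusted p = 5.46e-04). Both genes were apart between the groups in every library.

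The fibrous corona, the outermost and transient layer, was represented by CENPE, a kinesin motor that moves chromosomes to the spindle equator, and CENPF, a large coiled-coil protein. CENPE had 920, 616 and 790 counts in Control and 2087, 2108 and 2189 in SRRM4 KO, a log2 fold change of 1.39 (SE 0.125, adjusted p = 3.85e-07). CENPF had 2493, 2166 and 2037 counts against 5280, 5731 and 4963, a log2 fold change of 1.19 (SE 0.0923, adjusted p = 8.37e-08). Their sum went from 138 ± 17.1 to 326 ± 4.47 CPM (SD, n = 3 each), and the ratio of 2.37 was the largest of the 6 roles.

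Across the 37 genes the log2 fold change showed little relation to how abundant or how long a gene was. It had a Pearson r of 0.033 and a Spearman rho of -0.15 with the log2 Control level per kb, and -0.145 and -0.043 with the log2 gene length. In Control replicate 1, the library that stood apart, long genes were relatively higher: the log2 ratio of that library to the other Control libraries had r = 0.49 and rho = 0.35 with log2 length over the 37 genes, and r = 0.21 and rho = 0.26 over 15291 tested genes. CENPW, CENPM, SPC24 and ZWINT were the lowest in that library relative to the others, and CENPK, CENPL and CENPQ the highest. These values are across genes, which share the same libraries and are not independent replicates.

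Other genes of the same structures and of mitosis gave the setting. Of 20 further kinetochore and centromere genes, 15 rose, none fell and 5 did not pass, with a median log2 fold change of 0.77. The most abundant risers were CENPB, which binds the repeated DNA of centromeres (0.37), ZNF207, a BUB3 chaperone (0.22), and KIF2C, a microtubule-shortening kinesin of the centromere (1.89), taken by mean CPM and given as log2 fold changes. All 4 genes of the chromosomal passenger complex, which corrects wrong attachments, rose with a median of 1.75, among them BIRC5 at 1.97, CDCA8 at 1.65 and INCENP at 1.18.

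All 12 mitotic kinases, cyclins and exit factors rose, with a median of 1.40, and the most abundant, CDK1, CCNB1 and CCNA2, were at 1.33, 1.28 and 1.37. Of 9 proliferation and replication genes 8 rose, with a median of 0.85. TOP2A was at 1.24, PCNA at 1.19 and MCM4 at 0.80, while MCM6 did not pass (log2 fold change 0.08, adjusted p = 0.493). These genes of the dividing cell moved with the kinetochore genes in the same libraries, and their part in the kinetochore result was not tested.

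A list of 11 factors known to act on CHR and E2F elements had a lower median than the other lists. It holds only a part of such factors, with E2F4 as its only E2F gene. Of these 11 regulators 10 were tested, 5 rose, 1 fell and 4 did not pass, and the median log2 fold change was 0.33. FOXM1 had 1050, 1203 and 1189 counts in Control and 2747, 3013 and 2422 in SRRM4 KO, a log2 fold change of 1.18 (SE 0.0928, adjusted p = 9.40e-08). RBL1 and LIN54 rose by 0.79 and 0.72, and RBL2, which encodes the p130 protein of the DREAM complex, had 2184, 1881 and 2112 counts against 1768, 1696 and 1804, a log2 fold change of -0.29 (SE 0.0945, adjusted p = 0.0217). MYBL2 did not pass, at -0.28 (adjusted p = 0.197). The number of regulators that fell was 2 without Control replicate 1 and 0 without Control replicate 3 or SRRM4 KO replicate 2, and their median was 0.60 without Control replicate 3. No difference between the lists was tested.

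**Figure D5:**
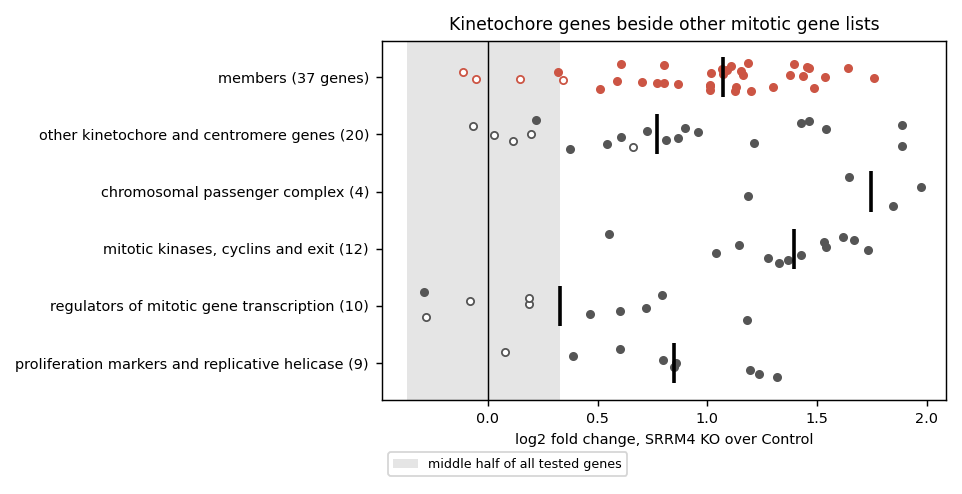
Log2 fold change, SRRM4 KO over Control, of each gene (points; filled where the adjusted p was under 0.05) in the 37 kinetochore and centromere genes and in 5 other lists, with a bar at each median and grey shading between the quartiles of all tested genes (-0.37 to 0.33). The medians run from 0.33 for the regulators to 1.75 for the chromosomal passenger complex, with the 37 genes at 1.07.

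The 37 genes lie on 18 chromosomes, and the coordinates and exon lengths in the table were those of GENCODE release 29 (GRCh38) for all of them. Exon bases are shared with another annotated gene in 14 of them, and in 7 the share is over 10%, the last of which, BUB1B at 10.2%, overlaps the read-through gene BUB1B-PAK6 that had 0 counts. The 7 annotated pseudogenes named after these genes reached at most 4 counts in any library.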

How the data were processed

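RNA of the UE7T-9 Control and SRRM4 KO cells was sequenced after a library preparation that keeps no strand, both by a sequencing company (Novogene Japan). The authors deposited counts of reads on each gene, not normalized, with gene symbols, coordinates and exon lengths. The submitters' processing notes name HISAT2 2.0.5, featureCounts 1.5.0-p3 and DESeq2, and how reads shared by overlapping genes were counted is not given in the sources used here. Samples were grouped by their titles and genotypes.

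Counts were tested in R 4.3.3 with edgeR 4.0.16 (TMM normalization, filterByExpr, a prior count of 0.125, glmQLFit and glmQLFTest, 2-sided), and p-values were adjusted by the Benjamini-Hochberg method over all 15341 genes that passed the filter. A gene was called at an adjusted p under 0.05. Standard errors are the log2 fold change over the square root of F. CPM per kb divides CPM by the exon length in the file. For the kinetochore and centromere genes this length equals the bases of all annotated exons together, not the length of the transcripts present. Comparisons of CPM per kb between genes therefore depend on the annotation. The 95% intervals rest on these standard errors and so take in the spread between libraries. The libraries held 21496117 to 23868323 counts, and floors from counts cover counting error only. The procedure was also run on simulated counts. For each gene these had the same spread in every library, so they give no check for a library that stands apart, as Control replicate 1 does.

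Of the genes, the text describes all 37 and gives counts in every library for those beyond a log2 fold change of 1 and for the most abundant of each role. Of each other list it names at most 3 called genes per direction, by mean CPM. CENPX, CENPS, PMF1, MCM6, MYBL2 and the genes that overlap a named gene were added after their values were seen. 1 further haematopoietic marker was left out and is not reported here. The members and lists were chosen with earlier results of these data known. Alternatives were other normalizations (DESeq2 size factors, upper quartile), other filters, DESeq2 1.42.0, protein-coding genes only, a replicate block, leaving out single libraries, and the chromosome median subtracted. Promoters came from a RefSeq table of GRCh38.p14, from 250 bases before to 50 bases after the start.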

Additional observations from a re-analysis of the deposited data

How the results depend on the processing

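The number of kinetochore and centromere genes that were higher stayed between 31 and 33 under every other normalization, filter, gene set and test and with each library left out, and was 24 with a log2 fold change beyond 1 required, a count that itself ran from 20 to 24 over the alternatives (added after the data were seen). None was lower in any of them. Their median log2 fold change was 1.04 with upper-quartile normalization, 1.05 with at least 10 counts in every library, and 1.04 to 1.12 with each library left out. CENPT, which did not pass in any fit, ran from -0.14 to 0.034 with each library left out and was above 0 without Control replicate 2 (adjusted p = 0.877). MIS12 and MIS18A lost their calls as given with their values.

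The replicate numbers did not pair the libraries: the correlations of same-numbered libraries were -0.055, 0.083 and -0.053. With the replicate number as a block, 32 genes were higher with a median of 1.07, and MIS12 lost its call (adjusted p = 0.072).

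For the other lists, the median of the chromosomal passenger complex was 1.62 with the chromosome median subtracted. That of the proliferation genes was 0.82 with upper-quartile normalization, 0.76 with the chromosome median subtracted, and 0.80 to 0.86 with each library left out. That of the regulators was 0.46 without a filter, 0.47 with DESeq2, 0.44 with the chromosome median subtracted, and 0.26 to 0.60 with each library left out, when 0 to 2 of them fell. That of the other kinetochore genes was 0.70 to 0.88 with each library left out. The causes of these shifts were not tested.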
